A study of Homo sapiens with 4 samples.

Results

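GSC, LHX1, OTX2 and HESX1 are homeobox genes, and their transcript levels were read from RNA-seq of human embryonic stem cells that were differentiated for 2 days with or without the Wnt secretion inhibitor IWP2. The genes were chosen by symbol, and each symbol stood on 1 row of the table, so that 4 of 58365 rows are described. The cells were H1, an established human embryonic stem cell line, collected at day 2 of hematopoietic differentiation. All samples were grown in a custom mTeSR1 medium with activin A and BMP4, which the labels give as 40 ng/ml and 50 ng/ml, respectively, and the study's methods give the same amounts the other way round. The 2 control samples carry the name DMSO, and the 2 treated samples received IWP2, at a concentration that is not given in the sources used here. IWP2 blocks Porcupine, the acyltransferase that Wnt ligands need for secretion. The labels do not say whether the 2 samples of a group came from separate cultures, so the p-values measure only the spread between these samples, which may be technical. The comparison asks how the levels of the 4 genes differ when Wnt secretion is blocked during this step.

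During gastrulation, activin and Nodal signals act through SMAD2, SMAD3 and FOXH1, together with Wnt signals, to form the primitive streak. Its anterior end expresses GSC and LHX1 and gives rise to the node and the definitive endoderm, while the posterior end expresses the T-box and caudal-type genes of the mesoderm that also gives rise to blood. GSC encodes Goosecoid, a paired-type homeodomain repressor of the organizer. LHX1 encodes a LIM-homeodomain factor that works with the adaptor LDB1. OTX2 encodes a bicoid-class homeodomain factor of primed pluripotent cells, anterior endoderm and forebrain. HESX1 encodes a homeodomain repressor of the anterior endoderm, forebrain and pituitary.

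Levels are FPKM, the authors' fragments per kilobase of transcript, scaled to sequencing depth, so levels of different genes are compared per length. Differences are given on the log2(FPKM + 1) scale, IWP2 minus DMSO, with the standard error (SE) and the adjusted p of limma (Benjamini-Hochberg over 15980 genes with a mean of at least 0.5 FPKM over the 4 samples). A gene was called changed at an adjusted p under 0.05. Adding 1 understates the change of genes at low levels. GSC, LHX1 and OTX2 were lower with IWP2 and HESX1 was not called, which is 3 of 4 genes called lower where 7.35% of all tested genes were called lower and 5.81% higher. All 4 passed the filter, but GSC and LHX1 were under 0.5 FPKM in both IWP2 samples and passed through the DMSO samples alone.

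GSC (ENSG00000133937.4) lies on the minus strand of chromosome 14 at 94768216-94770230 (GRCh38), and its single annotated transcript has 3 exons and 1264 bases. GSC was at 18.8 and 31.4 FPKM in DMSO 1 and DMSO 2 and at 0.118 and 0.368 FPKM in IWP2 1 and IWP2 2. The groups did not overlap, and the lowest DMSO sample was 51.0-fold above the highest IWP2 sample. The mean fell from 25.1 ± 8.96 FPKM (SD, n = 2) to 0.243 ± 0.177 FPKM (SD, n = 2), which left 0.968% of the DMSO level, a 103-fold difference. In limma the difference was -4.36 on the log2(FPKM + 1) scale (SE 0.27, 95% confidence interval -5.05 to -3.66, adjusted p = 0.00165). When either IWP2 sample was left out the direction stayed but GSC was no longer called, with differences of -4.21 without IWP2 1 (limma adjusted p = 0.0646) and -4.50 without IWP2 2 (limma adjusted p = 0.0655). The IWP2 values rest on few reads. From the size of 1 read in the table, GSC had about 432 and 635 reads in the DMSO samples, and about 3 and 8 reads in IWP2 1 and IWP2 2. The 95% Poisson intervals of the latter, 0.619 to 8.77 and 3.45 to 15.8 reads, cover counting error only and overlap, so the level left with IWP2 was not resolved between the 2 samples at this depth.

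LHX1 (ENSG00000273706.4) lies on the plus strand of chromosome 17 at 36936785-36944612, with 5 annotated transcripts and 5 exons in the longest. LHX1 was at 31.2 and 47.3 FPKM in the DMSO samples and at 0.09998 and 0.452 FPKM in the IWP2 samples. Here too the groups did not overlap, with a gap of 69.0-fold between the lowest DMSO and the highest IWP2 sample. The mean fell from 39.2 ± 11.4 FPKM to 0.276 ± 0.249 FPKM (SD, n = 2 each), leaving 0.703% of the DMSO level, a 142-fold difference. LHX1 had the largest difference of the 4 genes on the log2(FPKM + 1) scale, -4.96 (SE 0.25, 95% confidence interval -5.61 to -4.32, limma adjusted p = 0.000985). It ranked 11 among the 15980 tested genes ordered from the most lowered, ahead of GSC at 22 and OTX2 at 31.

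OTX2 (ENSG00000165588.16) lies on the minus strand of chromosome 14 at 56799905-56810479, with 7 annotated transcripts and 5 exons in the longest. OTX2 was at 55.8 and 61.2 FPKM in the DMSO samples and at 2.19 and 2.95 FPKM in the IWP2 samples. It was the most abundant of the 4 genes in every sample and the one whose replicates lay closest together in the DMSO group. The mean fell from 58.5 ± 3.81 FPKM to 2.57 ± 0.540 FPKM (SD, n = 2 each), leaving 4.39% of the DMSO level, a 22.8-fold difference. The difference was -4.07 on the log2(FPKM + 1) scale (SE 0.14, 95% confidence interval -4.43 to -3.70, limma adjusted p = 0.000439). In contrast to GSC and LHX1, OTX2 thus kept a level above 2 FPKM with IWP2.

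HESX1 (ENSG00000163666.8) lies on the minus strand of chromosome 3 at 57197843-57226521, with 4 annotated transcripts and 7 exons in the longest. HESX1 was at 0.625 and 0.527 FPKM in the DMSO samples and at 0.383 and 0.604 FPKM in the IWP2 samples. The groups overlapped, since IWP2 2 was above DMSO 2. The means were 0.576 ± 0.0691 FPKM and 0.494 ± 0.156 FPKM (SD, n = 2 each). The difference was -0.08 on the log2(FPKM + 1) scale (SE 0.19, 95% confidence interval -0.57 to 0.41, limma adjusted p = 0.826), and its interval holds changes in both directions. With a mean of 0.535 FPKM over the 4 samples HESX1 passed the filter narrowly, and its values correspond to about 3.87 to 15.02 reads a sample, depending on the transcript, so that a moderate change was not detectable at this depth.

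A second test was made for each gene alone. The exact two-sided permutation test over samples gave p = 0.333 for GSC, LHX1 and OTX2, the smallest value that 2 against 2 samples allow, and p = 0.667 for HESX1. The calls above therefore rest on the spread that limma estimates across all genes.

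**Figure D1:**
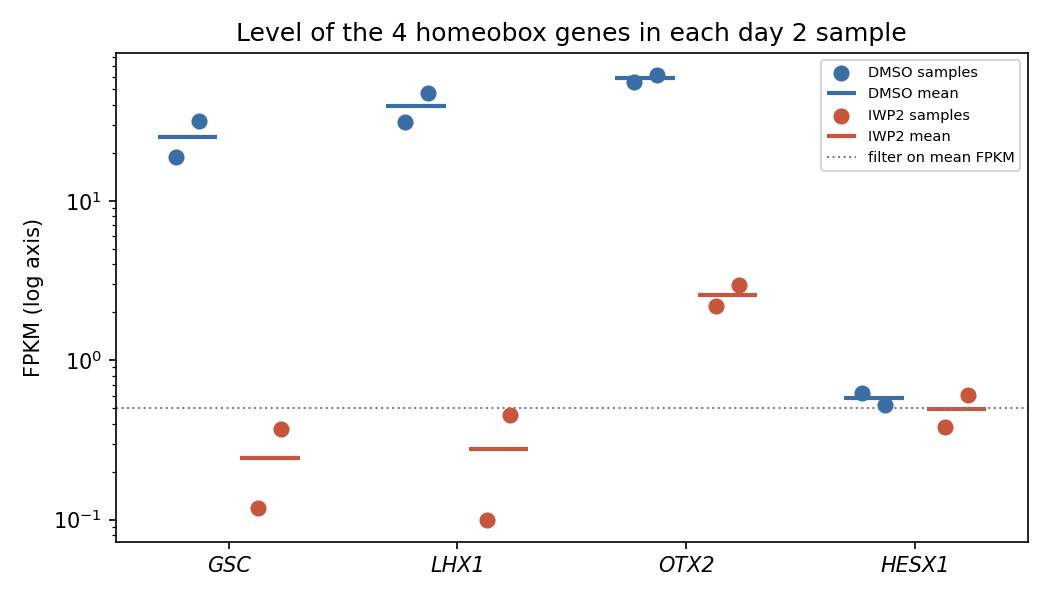
FPKM on a log axis of GSC, LHX1, OTX2 and HESX1 in each of the 4 samples, with 1 point a sample and a bar at the mean of each group (n = 2). The DMSO points of GSC, LHX1 and OTX2 sit between 18.8 and 61.2 FPKM and their IWP2 points between 0.09998 and 2.95 FPKM, while the points of HESX1 overlap.

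The order of the levels differed between the groups. In both DMSO samples it was OTX2, LHX1, GSC and HESX1 from high to low. The values of LHX1 and GSC overlapped between samples, as GSC in DMSO 2 was above LHX1 in DMSO 1, whereas those of the other neighbours in this order did not overlap. In the IWP2 samples OTX2 stayed first and HESX1 came second, above GSC and LHX1. In the IWP2 group the values of LHX1 overlapped those of HESX1 and of GSC, and GSC and LHX1 changed places between the 2 samples. Among the 15980 tested genes ordered by mean FPKM, GSC moved from rank 3727 in the DMSO group to rank 15728 in the IWP2 group, LHX1 from 2432 to 15696 and OTX2 from 1603 to 11386, while HESX1 was near the bottom in both, at 15190 and 15335.

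Ratios within a library do not depend on how the libraries were scaled. The ratio of OTX2 to GSC was 2.98 and 1.95 in the DMSO samples and 18.5 and 8.03 in the IWP2 samples. OTX2 to LHX1 was 1.79 and 1.29 in the DMSO samples and 21.9 and 6.54 in the IWP2 samples. Both ratios were higher in each IWP2 sample than in either DMSO sample, that is, GSC and LHX1 were reduced to a smaller share of their level than OTX2 was. LHX1 to GSC went from 1.66 and 1.51 in the DMSO samples to 0.847 and 1.23 in the IWP2 samples. HESX1 to OTX2 went from 0.0112 and 0.00862 in the DMSO samples to 0.175 and 0.205 in the IWP2 samples. For each of these 4 ratios the groups did not overlap, and the exact two-sided permutation test gave p = 0.333, the smallest possible with 2 against 2 samples. The ratios that involve GSC or LHX1 in the IWP2 samples carry the counting error described above for GSC.

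**Figure D2:**
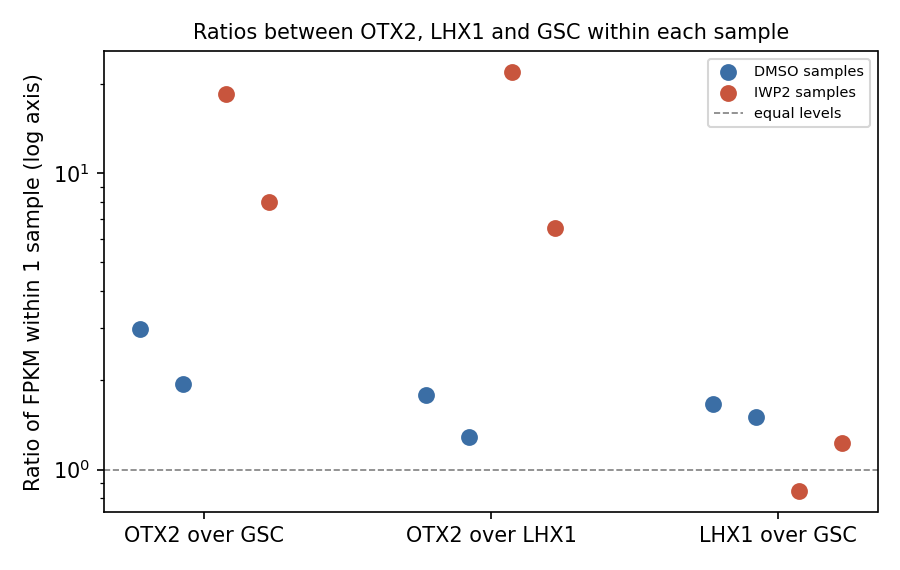
Ratios of FPKM within each library on a log axis, with 1 point a sample, for OTX2 to GSC, OTX2 to LHX1 and LHX1 to GSC. The IWP2 points of both OTX2 ratios lie at 6.54 or higher and the DMSO points at 2.98 or lower.

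The replicates of GSC and LHX1 were farther apart than those of most tested genes at 1 FPKM or more. DMSO 2 was above DMSO 1 by a factor of 1.68 for GSC and 1.52 for LHX1. Percentiles of this ratio were taken over tested genes with a group mean of at least 1 FPKM that were detected in both samples. For DMSO 2 over DMSO 1 the 5th percentile was 0.613 and the 95th was 1.49. With IWP2, replicate 2 was above replicate 1 by a factor of 3.12 for GSC and 4.52 for LHX1, with percentiles of 0.700 and 1.45. For OTX2 the factors were 1.10 and 1.35, inside both ranges. HESX1 was inside the range in the DMSO group at 0.844 and outside it in the IWP2 group at 1.58. The IWP2 means of GSC (0.243 FPKM), LHX1 (0.276 FPKM) and HESX1 (0.494 FPKM) were under 1 FPKM, as was the DMSO mean of HESX1 (0.576 FPKM). The ranges hold no genes at those levels, so replicates of equally low genes were not compared. The difference between the groups in GSC, LHX1 and OTX2 was larger than each of these replicate differences.

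**Figure D3:**
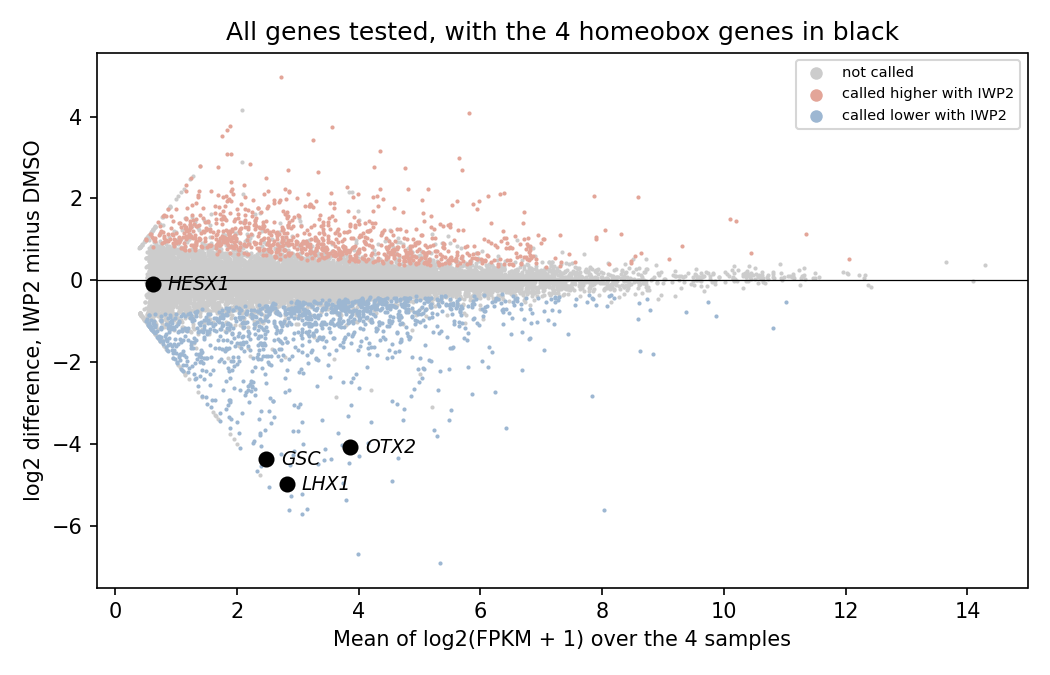
Log2(FPKM + 1) difference, IWP2 minus DMSO, against the mean level of all 15980 tested genes, with called genes and the 4 homeobox genes marked. GSC, LHX1 and OTX2 lie at the lower edge between -4.96 and -4.07, and HESX1 lies near 0 at the low end of the level axis.

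The sequence upstream of the genes was searched for the motifs of the factors named in the background, since genes lowered together invite this comparison. Windows of 250 bases before annotated starts came from RefSeq (GRCh38.p14) and matched GSC, OTX2 and HESX1, that is 3 of the 4 genes. All 250 bases were searched. A printed sequence ends before the first base in an annotated untranslated region of the 4 genes, and its coordinates are those of the printed bases. For this reason 133 bases are printed for GSC and 200 for HESX1. Both strands were searched for exact matches of CTTTGA (TCF/LEF), AATCCAC (FOXH1), TAATCC (bicoid-class homeodomain), TAATTA (LIM and other homeodomains) and AGGTGT (T-box) of which TAATCC and AATCCAC share the letters AATCC. Of 35116 such windows in the reference, 11.2% hold CTTTGA, 1.97% AATCCAC, 5.62% TAATCC, 4.35% TAATTA and 9.57% AGGTGT. The windows below are shown in the 5′ to 3′ direction of their own gene, with matches in capitals. A second OTX2 window (chr14:56805668-56805917) and a second HESX1 window (chr3:57227616-57227865) hold none of the motifs. The GSC window (chr14:94770231-94770363, minus strand) and the upstream OTX2 window (chr14:56810480-56810729, minus strand) hold none of the 5 motifs and are shown as the sequence next to GSC and OTX2.
GSC: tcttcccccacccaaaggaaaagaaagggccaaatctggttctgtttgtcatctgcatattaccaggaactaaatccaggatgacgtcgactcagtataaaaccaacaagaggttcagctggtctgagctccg
OTX2: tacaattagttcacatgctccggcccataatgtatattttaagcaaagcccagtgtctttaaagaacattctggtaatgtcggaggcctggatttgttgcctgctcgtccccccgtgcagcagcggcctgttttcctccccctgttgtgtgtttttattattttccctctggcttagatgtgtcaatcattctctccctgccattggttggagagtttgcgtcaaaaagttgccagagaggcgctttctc
The HESX1 window nearest its coding exons (chr3:57200029-57200228, minus strand) holds TAATTA at 2 places, 166 and 74 bases before the start.
HESX1: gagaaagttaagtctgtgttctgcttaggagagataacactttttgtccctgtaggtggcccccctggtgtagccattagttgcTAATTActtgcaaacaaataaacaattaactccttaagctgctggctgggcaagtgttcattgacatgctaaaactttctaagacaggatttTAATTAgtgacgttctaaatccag
The divergent transcript GSC-DT starts on the opposite strand upstream of GSC, and its window (chr14:94770392-94770641, plus strand) was added after the others had been seen. It holds 1 match to the FOXH1 motif, read as GTGGATT on the plus strand, 194 bases upstream of the 5′ end of GSC.
GSC-DT: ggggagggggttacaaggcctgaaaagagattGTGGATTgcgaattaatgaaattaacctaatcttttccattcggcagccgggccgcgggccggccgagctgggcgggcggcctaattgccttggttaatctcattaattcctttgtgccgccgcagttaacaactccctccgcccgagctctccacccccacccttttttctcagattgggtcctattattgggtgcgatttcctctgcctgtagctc
Of the windows of OTX2-AS1, which starts on the strand opposite to OTX2 and was also added later, 1 holds TAATTA and 1 holds AGGTGT, read as ACACCT. A match is a description of the letters and not a bound site, and a window with no match says nothing about whether a factor acts on the gene.

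The rows within 20 kb of each gene were read beside it. Upstream of LHX1, with a gap of 123 bases, lies the noncoding AC243773.2 (chromosome 17, 36861674-36936661), whose coordinates are those of LHX1-DT in RefSeq. AC243773.2 was at 2.24 and 1.82 FPKM in the DMSO samples and at 0.169 and 0 FPKM in the IWP2 samples. It was called lower, with a difference of -1.48 on the log2(FPKM + 1) scale (SE 0.19, limma adjusted p = 0.0117), but not without the filter (adjusted p = 0.0659) or when any 1 sample was left out (adjusted p from 0.0616 to 0.119). AATF, on the other side of LHX1 at a gap of 4262 bases, encodes a factor of ribosome biogenesis. AATF went from 34.5 and 43.8 FPKM to 20.2 and 21.2 FPKM, a difference of -0.88 on the log2(FPKM + 1) scale (SE 0.14, limma adjusted p = 0.0180). The AATF call was lost without the filter and when DMSO 2, IWP2 1 or IWP2 2 was left out. AC243773.1, a row inside LHX1, was listed at 0 or near 0 in every sample. The antisense OTX2-AS1, at a gap of 2703 bases from OTX2, was listed at 0 in 3 samples and at 0.0212 FPKM in IWP2 2, also where OTX2 was high. APPL1, an endosomal adaptor gene 1215 bases from HESX1, was at 10.2 and 9.72 FPKM in the DMSO samples and at 10.5 and 8.89 FPKM in the IWP2 samples (difference -0.04 on the log2(FPKM + 1) scale, limma adjusted p = 0.881).

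To place the 4 genes among their partners, lists of related genes were counted. Of 22 genes of the anterior streak, node and Nodal pathway 19 were tested, of which 12 were called lower and 7 were not called. Among all tested genes 7.35% were called lower. The median difference of the 19 genes was -1.06 on the log2(FPKM + 1) scale, beside -0.01 over all tested genes. The count called lower in this list was 7 without the filter, and it was also smaller when 1 sample was left out. EOMES, the T-box factor that opens the endoderm program, fell from 138 and 153 FPKM to 12.8 and 12.6 FPKM (difference -3.41 on the log2(FPKM + 1) scale, limma adjusted p = 0.000310). CER1, a secreted antagonist of Nodal, BMP and Wnt, fell from 1612 and 2048 FPKM to 38.6 and 34.2 FPKM. Its difference of -5.60 on the log2(FPKM + 1) scale (limma adjusted p = 0.000310) was larger than those of GSC, LHX1 and OTX2. This order depends on the added 1. With a pseudocount of 0.1 the difference of CER1 was -5.64, smaller than those of GSC (-6.25) and LHX1 (-6.86) and larger than that of OTX2 (-4.47). MIXL1, a paired-type homeobox gene of the streak, fell from 278 and 317 FPKM to 21.7 and 25.4 FPKM (difference -3.60, limma adjusted p = 0.000411). DKK1, a secreted Wnt antagonist, fell from 30.1 and 25.4 FPKM to 0.200 and 0.919 FPKM (difference -4.24, limma adjusted p = 0.00149).

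Within this list the Nodal ligand and its transcription factors were read next. NODAL, the ligand, was at 12.2 and 6.07 FPKM in the DMSO samples and at 9.02 and 9.81 FPKM in the IWP2 samples, and was not called (difference 0.10 on the log2(FPKM + 1) scale, limma adjusted p = 0.858). The IWP2 values of NODAL lay between the 2 DMSO values. FOXH1, the DNA-binding partner of SMAD2 and SMAD3, was called lower, from 26.3 and 26.9 FPKM to 15.8 and 18.0 FPKM (difference -0.63 on the log2(FPKM + 1) scale, limma adjusted p = 0.0211). The FOXH1 call was lost without the filter (adjusted p = 0.0774) and when any 1 sample was left out (adjusted p from 0.103 to 0.159), whereas EOMES, CER1, MIXL1 and DKK1 were called in every alternative. SMAD2, which carries the activin and Nodal signal to the nucleus, was called lower, from 51.7 and 45.5 FPKM to 30.8 and 31.7 FPKM (difference -0.62 on the log2(FPKM + 1) scale, limma adjusted p = 0.0195), and this call was lost without the filter and when any 1 sample was left out. Its partners SMAD3 (difference -0.47, limma adjusted p = 0.139) and SMAD4 (difference -0.05, limma adjusted p = 0.733) were not called. SOX17, a definitive endoderm factor, was at 155 and 104 FPKM in the DMSO samples and at 79.7 and 94.9 FPKM in the IWP2 samples, and was not called (limma adjusted p = 0.167). SOX17 and GSC, both genes of the anterior streak and its derivatives, thus differed in whether they passed the test. The difference between their changes was not tested.

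Posterior streak and nascent mesoderm genes were lowered too. Of 13 such genes 11 were tested, and 10 were called lower, where 7.35% of all tested genes were called lower. Their median difference was -2.42 on the log2(FPKM + 1) scale. The count was 7 without the filter and between 3 and 9 when 1 sample was left out. APLNR, the apelin receptor of early mesoderm, fell from 380 and 512 FPKM to 2.97 and 2.39 FPKM, a difference of -6.91 on the log2(FPKM + 1) scale. MESP1, a transcription factor of nascent mesoderm, fell from 47.6 and 74.6 FPKM to 0.244 and 0.0870 FPKM, a difference of -5.70. T, which encodes Brachyury, was called lower, from 21.6 and 18.5 FPKM to 9.40 and 10.4 FPKM (difference -0.94 on the log2(FPKM + 1) scale, limma adjusted p = 0.0115). The call of T was lost without the filter and when any 1 sample was left out. The fall of GSC, LHX1 and OTX2 therefore stood beside that of genes of the other end of the streak. CDX4, a caudal-type gene, was the tested gene of this list that was not called (limma adjusted p = 0.243).

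**Figure D4:**
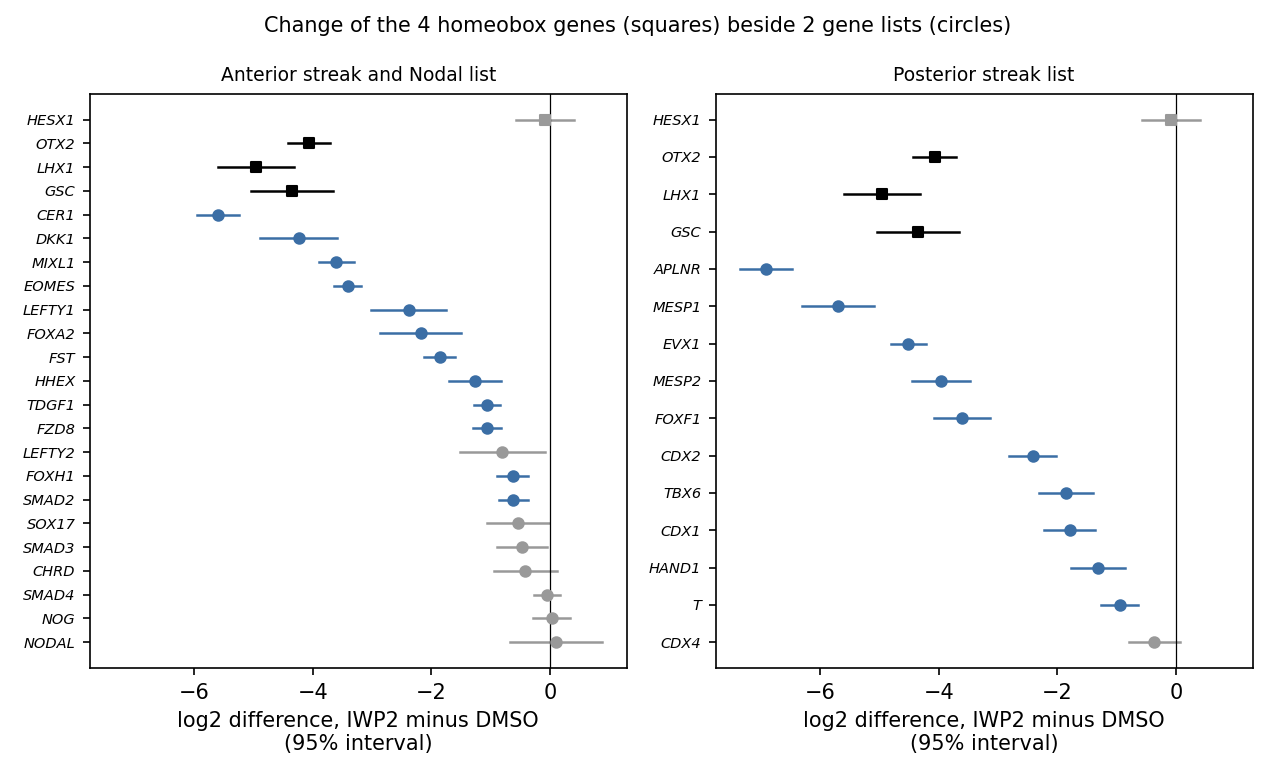
Log2(FPKM + 1) difference, IWP2 minus DMSO, of each tested gene of 2 gene lists, the 19 anterior streak and Nodal pathway genes and the 11 posterior streak and mesoderm genes, beside the 4 homeobox genes. The medians of the lists are -1.06 and -2.42, and GSC, LHX1 and OTX2 lie between -4.96 and -4.07.

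The cofactors of the 4 proteins were measured in the same samples. For the LIM-homeodomain family and its partners, 11 of 21 genes were tested, with 2 called lower and 1 higher. Over all tested genes 7.35% were called lower and 5.81% higher, and the counts of this list were not tested against these shares. LDB1, the adaptor that LHX1 binds, was at 50.5 and 49.8 FPKM in the DMSO samples and at 54.6 and 49.8 FPKM in the IWP2 samples (difference 0.05 on the log2(FPKM + 1) scale, limma adjusted p = 0.729). LDB2, its relative, fell from 69.6 and 104 FPKM to 34.6 and 29.04 FPKM (difference -1.40, limma adjusted p = 0.0170). LMO4, a LIM-only protein that competes for LDB1, rose from 21.6 and 22.5 FPKM to 40.0 and 44.3 FPKM (difference 0.90, limma adjusted p = 0.00645). SSBP3, which stabilizes LDB1 complexes, was called lower from 107 and 103 FPKM to 81.0 and 80.9 FPKM (difference -0.37, limma adjusted p = 0.0368). The SSBP3 call was also lost with upper-quartile scaling (adjusted p = 0.0667), without the trend in limma's variance (0.0985) and with the replicate block (0.0571), and under that block its relative SSBP2 was called higher (adjusted p = 0.0287, against 0.154 without it). No gene of this list was called without the filter or when DMSO 2, IWP2 1 or IWP2 2 was left out.

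Of 16 paired-type and bicoid-class relatives of GSC and OTX2, 6 were tested, of which 2 were called lower and 4 were not called. MIXL1, given above, was 1 of the 2. Among all tested genes 7.35% were called lower, and this count was not tested against that share. OTX1, the paralogue of OTX2, was at 0.794 and 0.973 FPKM in the DMSO samples and at 0.138 and 0.141 FPKM in the IWP2 samples, and missed the threshold (difference -0.72 on the log2(FPKM + 1) scale, limma adjusted p = 0.0681). Among the corepressors, which include the Groucho-related TLE proteins that GSC and HESX1 recruit, 2 of 11 tested genes were called lower and 1 higher. The shares over all tested genes were 7.35% lower and 5.81% higher, and the corepressor counts were not tested against them. TLE3 went from 42.8 and 47.1 FPKM to 27.4 and 29.1 FPKM (difference -0.65, limma adjusted p = 0.0151), and TLE1 from 22.0 and 24.2 FPKM to 34.0 and 36.4 FPKM (difference 0.59, limma adjusted p = 0.0217). None of the corepressor calls held without the filter or when any 1 sample was left out.

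HESX1 and OTX2 also mark the anterior neural plate, so genes of that tissue were read. Of 15 such genes 5 were tested, of which 1, SOX2, was called higher, 1 was called lower and 3 were not called. The shares over all tested genes were 7.35% lower and 5.81% higher, and these counts were not tested against them. SOX2, of pluripotent and neural cells, rose from 0.193 and 0.174 FPKM to 35.6 and 36.1 FPKM (difference 4.96 on the log2(FPKM + 1) scale, limma adjusted p = 0.000310). PAX6, a neural and eye factor, was at 1.33 and 0.646 FPKM in the DMSO samples and at 0.0838 and 0.0278 FPKM in the IWP2 samples. It was not called (limma adjusted p = 0.0780). OTX2 and SOX2, both genes of primed pluripotent cells, thus changed in opposite directions.

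Marker lists of the cells that the culture could hold moved between the groups as well. Of all tested genes 7.35% were called lower and 5.81% higher, and the list counts in this paragraph were not tested against these shares. The summed level of 9 primed pluripotency markers was 1342 and 1165 FPKM in the DMSO samples and 2542 and 2537 FPKM in the IWP2 samples. Of the 9 markers 5 were called higher, 1 was called lower and 3 were not called. Most of the IWP2 sums came from POU5F1, at 751 and 571 FPKM with DMSO and 1854 and 1844 FPKM with IWP2. The summed level of 8 mesoderm markers went from 1160 and 1468 FPKM to 187 and 206 FPKM, with all 8 called lower. That of 7 definitive endoderm markers, which include CER1, went from 1918 and 2307 FPKM to 126 and 137 FPKM, with 5 of 6 tested genes called lower. Most of the DMSO sums came from CER1, at 1612 and 2048 FPKM with DMSO and 38.6 and 34.2 FPKM with IWP2. The summed level of 6 neural markers was 100 and 88.1 FPKM with DMSO and 137 and 126 FPKM with IWP2, nearly all of it from NES, while SOX1 was at 0.0355 FPKM or lower. Amnion markers summed to 64.2 FPKM in both DMSO samples and to 82.8 and 89.7 FPKM with IWP2, with 3 of 5 tested genes called higher, and 6 fibroblast markers to between 177 and 190 FPKM in all samples. Of 4 tested fibroblast markers LUM was called lower, from 3.10 and 2.80 FPKM to 0.108 and 0.178 FPKM (limma adjusted p = 0.00494), and THY1 higher, from 89.1 and 83.0 FPKM to 114 and 119 FPKM (limma adjusted p = 0.0304), while DCN was at 0.00705 FPKM or lower. The LUM call was lost when IWP2 1 or IWP2 2 was left out, and the THY1 call without the filter, without the trend and when any 1 sample was left out. Without the filter or when 1 sample was left out, the counts called lower were 4 to 6 for mesoderm and 2 to 4 for endoderm, and those called higher were 1 to 4 for pluripotency and at most 1 for amnion. In a bulk sample fewer cells of a type and less RNA per cell cannot be told apart, and the part of cell composition in the levels of GSC, LHX1 and OTX2 was not tested. As a check of the treatment, 6 of 9 Wnt target genes were called lower, and their summed level went from 161 and 174 FPKM to 24.4 and 22.9 FPKM. AXIN2, a direct target of Wnt signalling, went from 14.2 and 15.2 FPKM to 6.45 and 5.58 FPKM (difference -1.16 on the log2(FPKM + 1) scale). The AXIN2 call was lost without the filter (limma adjusted p = 0.0554) and when any 1 sample was left out (up to 0.101), and 4 of the 9 genes were called under each of these settings.

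The genes whose profile over the 4 samples was most like that of each homeobox gene were found by the Euclidean distance between log2(FPKM + 1) profiles centred on their own mean, over 14010 genes with a mean of at least 1 FPKM. For GSC they included WNT5A (distance 0.22) and CNKSR3 (0.31). WNT5A, a ligand of noncanonical Wnt signalling, went from 60.1 and 82.4 FPKM to 2.45 and 2.82 FPKM. For LHX1 they were the noncoding AC027309.2 (0.34), HOXB6 (0.37) and GATA6 (0.50). HOXB6 went from 38.9 and 51.7 FPKM to 0.116 and 0.263 FPKM, and GATA6, an endoderm factor, from 119 and 134 FPKM to 3.52 and 3.01 FPKM. For OTX2 they were HS3ST3A1 (0.16), a heparan sulfate sulfotransferase gene, AC004080.1 (0.19) and AC134684.3 (0.23). HS3ST3A1 went from 47.0 and 57.7 FPKM to 2.09 and 2.47 FPKM. The distances among the homeobox genes themselves were 0.50 between GSC and OTX2, 0.62 between GSC and LHX1 and 0.96 between LHX1 and OTX2, so each had genes closer to it than the other two. HESX1 was nearest to AKAP10 (0.0097) and at least 3.99 from each of the other members. With 4 samples in 2 groups, these distances mainly describe the size of the difference between the groups on the log2(FPKM + 1) scale. That size also depends on the level of a gene, since adding 1 shrinks changes at low levels, so a small distance does not mean an equal fold change.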

How the data were processed

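RNA-seq (TruSeq, total RNA) covered 2 DMSO and 2 IWP2 samples. The deposited table gives FPKM per gene, made by the authors. The submitters' notes name BWA, Bowtie, RSEM and hg19, without versions or roles. However, 99.8% of row IDs of the same version carry the GENCODE v29 (GRCh38) coordinates, so positions are GRCh38. Whether counting used strand is not given in the sources used here. Columns with a minus sign before IWP2 were taken as DMSO. Depth, estimated from the FPKM worth of 1 read in long single-transcript noncoding genes, was about 20600000 to 25300000 reads a sample; 94.3% to 95.0% of low values lay within 0.1 of a whole read.

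FPKM sums were 616418 to 653850, and replicates correlated at r = 0.975 (DMSO) and 0.981 (IWP2) over tested genes. Tests used limma 3.58.1 (R 4.3.3; lmFit, eBayes with trend) on log2(FPKM + 1), without a block, and were tested on simulated data. Pseudocount, filter, scaling, variance, block and leave-one-out alternatives were run. The genes and lists were chosen with earlier results of these data known. Named genes were the 4 genes, list members and, for each gene, its 3 nearest profiles. Homeodomain protein sequences were not analysed here. Some genes that this rule names are not reported here.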

Additional observations from a re-analysis of the deposited data

How the results depend on the processing

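Under 13 alternatives LHX1 and OTX2 stayed lower and called, with differences of -6.86 to -4.67 (limma adjusted p from 0.000495 to 0.0485) and -4.47 to -3.91 (limma adjusted p from 0.000202 to 0.0391) on the log2 scale. GSC stayed lower in all 13, from -6.25 with a pseudocount of 0.1 to -4.00, and was called in 11; with 1 sample left out it ranged from -4.71 to -4.00, and it was not called without IWP2 1 or without IWP2 2 (limma adjusted p up to 0.0655). HESX1 was not called in any of 12 alternatives, and its sign turned without IWP2 1, to 0.0258 (limma adjusted p = 0.952); with 1 sample left out it ranged from -0.19 to 0.0258. A filter at 1 FPKM removed HESX1, so that alternative gave no value. Over all genes, 929 were called higher and 1175 lower. Without the filter, where 28917 genes were tested, the counts were 118 higher and 263 lower, and 31.0% of calls were higher instead of 44.2%. Higher calls outnumbered lower ones with upper-quartile scaling (1095 and 1022, 51.7% higher) and with quantile normalization (1066 and 1058, 50.2% higher). With 1 sample left out they ran from 18 to 286 higher and from 76 to 410 lower, lowest without IWP2 2; the lone sample of a group is then assumed to vary like the others. Of 56 called genes among the 4, the lists and the rows beside LHX1, 56 kept their direction in every alternative that gave a value and 16 kept their call, LHX1 and OTX2 among them. Samples of the same number share only a number, and their deviations from the group means correlated at r = 0.142 over the tested genes. With the replicate block 842 genes were called higher and 1059 lower, with no changed call for GSC, LHX1, OTX2 or HESX1. What limits the data is 2 samples a group and the few reads of GSC and LHX1 with IWP2 and of HESX1 throughout.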
